A study of Homo sapiens with 4 samples.

Results

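The genes described here encode the machinery that loads, fires and runs DNA replication forks. The members were 47 genes chosen by name: every probe whose platform symbol, in its older or current form (ORC1L for ORC1, CDC45L for CDC45), belonged to 1 of the named replication proteins. All 47 had a probe, out of 17605 named genes on the array, and all 47 were above the blank spots on all 4 arrays. GMNN, MCM8, CLSPN and RFC1 had 2 probes each, which were averaged, and the other members had 1.

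RNA came from DLD1 and HT29, established human colorectal cancer lines. By the sample titles, all cultures received 2 mM glutamine for 24 h, and in each line 1 culture had 10 mM glucose as well and 1 had none. Dialysed fetal bovine serum at 10% was shared by every group, so the comparison is of glucose. Each line and medium had 1 single-colour array, 4 arrays in all, and nothing in the labels speaks of repeat cultures, of clones or of genotype. A change within a line was thus measured once, is given with no p-value, and is repeated in the other line alone. The limma p-values given below for the medium set the mean change against its spread between those 2 lines, moderated over all genes. Those for the line set the mean difference between the lines against its spread between the media, moderated likewise.

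In eukaryotic cells, origins of replication are prepared in G1 and used in S phase. The origin recognition complex (ORC1 to ORC6) binds DNA, CDC6 and CDT1 join it, and together they load the ring-shaped MCM2 to MCM7 helicase, a step called licensing. The kinase CDC7 with its partner DBF4 then acts on MCM, and CDC45 and the GINS complex bind it to form the active helicase. At the fork, polymerase alpha with primase starts each strand, polymerases delta and epsilon extend it, the RFC complex loads the sliding clamp PCNA, FEN1 and LIG1 finish the lagging strand, and RPA coats single-stranded DNA. Many of these genes are transcribed around the G1 to S transition under E2F transcription factors, which makes their RNA a common readout of proliferation in tumour cells.

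Because E2F sites are the shared regulatory feature known for this machinery, promoter windows were read from RefSeq (GRCh38.p14), from 250 bases before to 50 bases after each gene's start. Windows were used for 41 of the 47 members. The words searched were TTTCCCGC, TTTCGCGC, TTTGCCGC and TTTGGCGC on both strands, and matches may overlap one another. At least 1 word was present for 22 of the 41 members (53.7%), against 5.4% of 15843 protein-coding genes. Counted by window, since a gene can have several, 22 of 52 member windows held a word (42.3%) against 4.1% of 22199 windows. The 5 windows below are those of the members with the largest change in each direction in HT29 and of FEN1, which has no such word although it was 2-fold lower in both lines. They are written 5′ to 3′ on the strand of the gene, with the words in capitals. MCM6 is at chr2:135876394-135876693 on the minus strand, GINS2 at chr16:85688905-85689204 on the minus strand, PCNA at chr20:5126573-5126872 on the minus strand, CDC6 at chr17:40287629-40287928 on the plus strand and FEN1 at chr11:61792661-61792960 on the plus strand. For PCNA, 1 of 2 windows is shown.

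MCM6: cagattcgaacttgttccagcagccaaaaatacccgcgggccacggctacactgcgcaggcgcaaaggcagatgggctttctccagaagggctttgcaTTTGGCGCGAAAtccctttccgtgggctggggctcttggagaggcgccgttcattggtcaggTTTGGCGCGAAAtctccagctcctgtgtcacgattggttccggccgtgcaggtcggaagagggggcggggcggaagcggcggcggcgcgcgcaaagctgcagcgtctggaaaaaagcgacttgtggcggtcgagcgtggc
GINS2: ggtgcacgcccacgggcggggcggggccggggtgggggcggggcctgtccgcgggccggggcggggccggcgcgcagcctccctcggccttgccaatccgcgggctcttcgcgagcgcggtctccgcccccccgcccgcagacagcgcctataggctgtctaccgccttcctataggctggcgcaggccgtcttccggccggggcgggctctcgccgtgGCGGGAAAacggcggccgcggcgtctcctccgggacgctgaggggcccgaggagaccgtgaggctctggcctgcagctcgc
PCNA: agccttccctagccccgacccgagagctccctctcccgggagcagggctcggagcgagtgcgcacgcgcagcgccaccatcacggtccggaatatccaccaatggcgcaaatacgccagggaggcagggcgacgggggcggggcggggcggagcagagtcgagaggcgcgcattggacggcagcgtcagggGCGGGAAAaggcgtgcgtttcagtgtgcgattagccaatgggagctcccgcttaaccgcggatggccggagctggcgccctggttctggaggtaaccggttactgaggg
CDC6: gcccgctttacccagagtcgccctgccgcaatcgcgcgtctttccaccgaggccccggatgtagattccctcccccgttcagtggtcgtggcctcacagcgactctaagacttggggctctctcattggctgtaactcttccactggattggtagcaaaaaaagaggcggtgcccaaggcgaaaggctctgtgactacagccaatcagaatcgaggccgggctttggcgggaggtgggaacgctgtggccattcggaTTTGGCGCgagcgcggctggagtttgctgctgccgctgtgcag
FEN1: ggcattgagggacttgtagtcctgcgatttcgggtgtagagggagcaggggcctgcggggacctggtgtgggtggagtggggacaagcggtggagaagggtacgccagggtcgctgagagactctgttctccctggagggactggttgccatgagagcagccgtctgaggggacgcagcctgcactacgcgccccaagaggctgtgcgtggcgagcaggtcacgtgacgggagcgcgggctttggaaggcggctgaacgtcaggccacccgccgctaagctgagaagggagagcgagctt

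The MCM6 window holds TTTGGCGCGAAA at 2 places, each of which counts as 2 overlapping words, 4 in all. The GINS2 and PCNA windows hold GCGGGAAA, the reverse complement of TTTCCCGC, once each. In the CDC6 window the word lies just past the start site. Over all member windows there were 30 words, of which 15 ended within 100 bases upstream of the start and 9 reached it or lay past it. A second word type, known from genes of late cell cycle phases (TTTGAA or TTCGAA), was in 2 of 52 member windows (3.85%) against 13.7% of all protein-coding windows. A match is a description of the letters and not a bound site.

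All changes below are log2 of the normalized intensity without glucose over that with glucose, so negative values are lower without glucose and -1 is a 2-fold difference. Levels are normalized log2 intensities, and they can be compared between arrays for 1 gene but not between genes. Without glucose, the replication genes were lower in both lines and by more in HT29. The median member changed by -0.38 in DLD1, to 77.0% of its signal with glucose, and by -1.001 in HT29. The medians over all 15617 genes measured in both lines were -0.0021 and -0.002. In DLD1 42 of the 47 members were lower, against 51.0% of all genes, and in HT29 44 were, against 50.7%. Lower in both lines were 41 members, against 32.7% of all genes. The pair CDC6 and RFC1 was higher in both lines (background 30.9%), and 4 had opposite signs, as had 5669 of all 15617 genes.

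At a 2-fold minimum, 2 members were lower in DLD1, where 0.807% of all genes were, namely MCM7 and FEN1, and 0 were higher (background 1.20%). In HT29 24 of 47 were at least 2-fold lower, where 3.29% of all genes were, and 1, CDC6, was at least 2-fold higher (background 3.81%). MCM7 and FEN1 were 2-fold lower in both lines, as were 0.442% of all genes, but FEN1 was -0.72 in HT29 with the local background subtracted. With that subtraction 14 members were 2-fold lower in HT29 (background 2.68%). Over the settings between 2 and 12 were in DLD1, where between 0.733% and 4.43% of all genes were. CDC6 was at 0.97 in HT29 at its lowest. The change was more negative in HT29 than in DLD1 for 41 of 47 members (background 49.8%), with a median difference of -0.59, or of -0.29 with the local background subtracted. That difference between the lines could not be tested, since no residual degrees of freedom remain with 1 array per line and medium. Signs turned in 1 setting above all, the subtraction of the local background. There 11 members turned in DLD1 (ORC3, ORC5, CDC6, MCM5, MCM10, CDC45, POLD1, POLD3, PCNA, RFC1 and RPA1) and 5 in HT29 (ORC2, ORC3, DBF4, PRIM1 and PRIM2). With median scaling and in the deposited values, CDC6 and RFC4 turned in DLD1 and ORC2 in HT29. In RNA from whole cultures, fewer cells in S phase and less of each RNA per cell cannot be told apart.

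**Figure D1:**
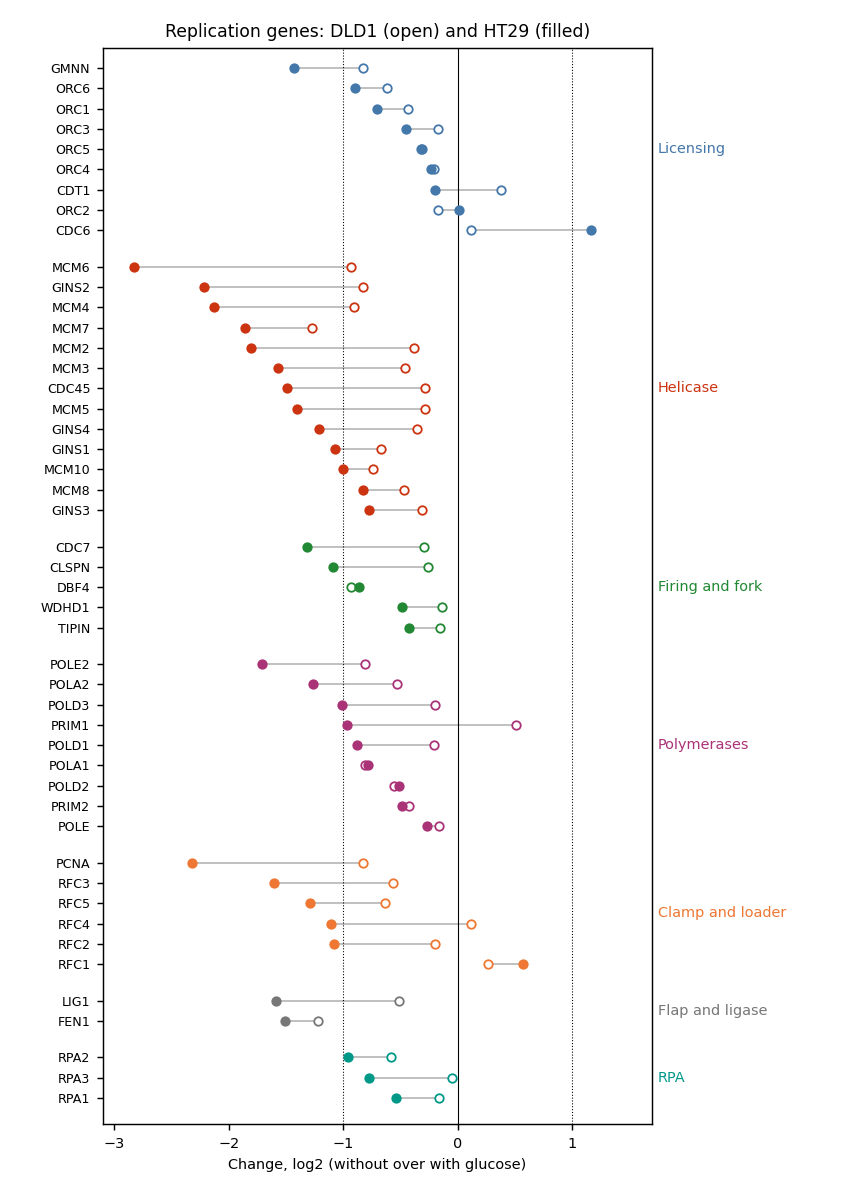
Change of each of the 47 members, in log2 of the normalized intensity without over with glucose, in DLD1 (open circles) and HT29 (filled circles), 1 array per line and medium, arranged by function. Dotted lines mark 2-fold, and most filled circles lie to the left of the open ones, with MCM6 at -2.83 in HT29 and CDC6 on the other side at 1.17.

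With limma over all 15617 genes, with line as a block, 0 genes passed an adjusted p of 0.05 for the mean change of medium, and the smallest adjusted p was 0.303. An unadjusted p below 0.05 was found for 16 members, all of them lower without glucose, where 7.68% of all genes were lower at that p. These p-values depend on how alike the lines were as well as on how large the change was. DBF4, at -0.94 in DLD1 and -0.87 in HT29, had the smallest among members (limma adjusted p = 0.303), whereas MCM6, with a mean of -1.88 ± 1.34 (SD, n = 2 lines), had a limma adjusted p of 0.439. Across the 47 members the changes in the lines had Pearson's r = 0.635 and Spearman's rho = 0.637, and across all genes 0.518 and 0.431. The points of each line share both of its arrays, so these are descriptions.

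**Figure D2:**
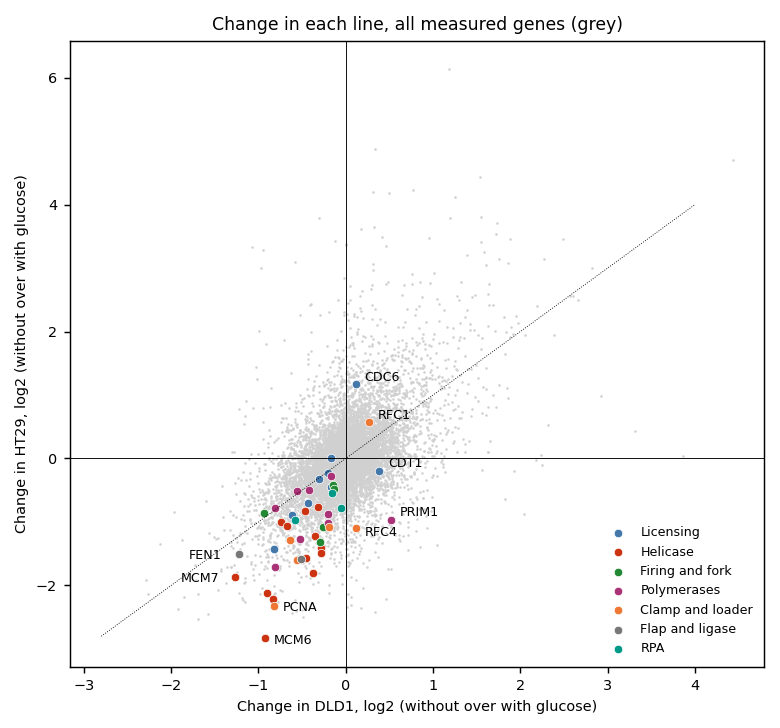
Change in HT29 against change in DLD1 (log2, without over with glucose) for all 15617 genes (grey) and the 47 members (coloured by function), with the line of equal change dotted. Most members lie in the lower left part and below the dotted line, and CDC6, RFC1, ORC2, CDT1, PRIM1 and RFC4 lie outside the lower left.

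The function groups differed in size of change. In HT29 the median was -1.49 for the 13 helicase genes, -1.20 for the 6 clamp and loader genes, -0.88 for the 9 polymerase and primase genes and -0.32 for the 9 licensing genes. In DLD1 the same medians were -0.47, -0.38, -0.42 and -0.21. As processed here, 11 of 13 helicase genes and 5 of 6 clamp and loader genes were at least 2-fold lower in HT29. So were 3 of 9 polymerase genes and 1 of 9 licensing genes, against 3.29% of all genes. The helicase median was below the licensing median in both lines under all 9 processing settings. The place of the polymerase group in HT29 depended on the processing. In the deposited values its median there was -1.63, below the -1.53 of the clamp and loader genes. With the local background subtracted it was -0.27, beside -0.29 for licensing. No test of the groups against each other was run, since the genes of a group are not replicates.

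**Figure D3:**
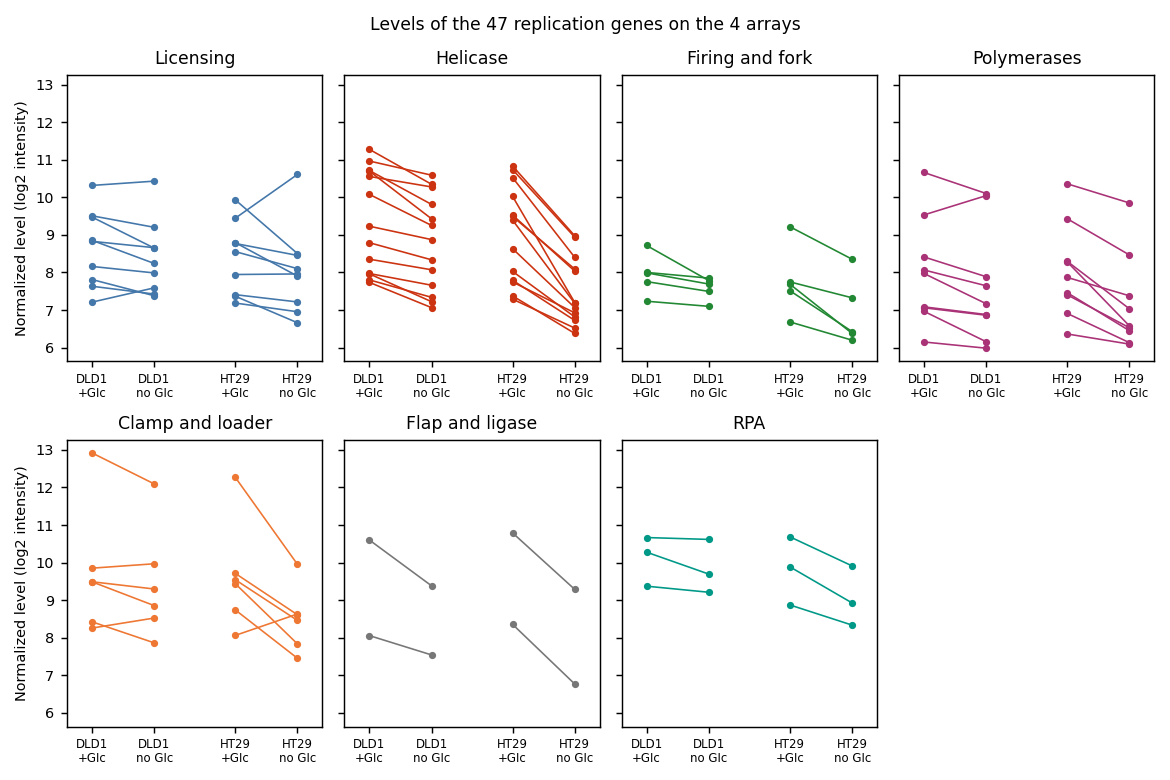
Normalized log2 intensity of each member with glucose (+Glc) and without (no Glc) in DLD1 and HT29, 1 line per gene and 1 panel per function group. The helicase and clamp lines slope down more steeply in HT29 than in DLD1, and the licensing panel holds 1 steep rise, CDC6 in HT29.

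Among the licensing genes, ORC2 to ORC5 changed by less than ORC1 and ORC6 in both lines as processed here. The median change of the 6 ORC subunits was -0.26 for DLD1 and -0.39 for HT29, and none reached 2-fold in either line. ORC6 passed it in HT29 with median scaling (-1.17) and in the deposited values (-1.14) and in DLD1 with the local background subtracted (-1.31), and ORC1 passed it in HT29 in the deposited values (-1.28). ORC4 went from 7.63 with glucose to 7.43 without it in DLD1 and from 7.19 to 6.96 in HT29, changes of -0.21 and -0.23. ORC5 went from 9.509 to 9.202 in DLD1 and from 8.77 to 8.45 in HT29, changes of -0.31 and -0.32. Both were lower by nearly the same amount in each line. ORC3 changed by -0.17 in DLD1 and -0.45 in HT29, and ORC2 by -0.17 and 0.01, so that ORC2 hardly moved. ORC1, the subunit whose amount cycles in human cells, changed by -0.43 and -0.71. ORC6 was the lowest of the complex in both lines, at -0.62 and -0.89.

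CDC6, the loader that ORC recruits, had the largest increase of the members in HT29. Its level went from 10.32 to 10.43 in DLD1 and from 9.44 to 10.61 in HT29, changes of 0.11 and 1.17. In the deposited intensities it went from 599.3 to 1452.9 in HT29 and from 958.1 to 872.1 in DLD1. The increase in HT29 was thus present on either scale, and in DLD1 the sign depended on the processing, being positive under 6 of 9 settings. CDT1, which brings the helicase to ORC and CDC6, went from 7.21 to 7.59 in DLD1 and from 7.41 to 7.22 in HT29, changes of 0.38 and -0.19. GMNN encodes geminin, the inhibitor of CDT1 that keeps origins from being licensed again in the same cycle. It went from 9.48 to 8.65 in DLD1 and from 9.94 to 8.50 in HT29, changes of -0.83 and -1.43, and both of its probes were lower in both lines. In HT29, therefore, the loader CDC6 was higher while the inhibitor geminin was 2-fold lower, and ORC lay between them.

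The 6 subunits of the MCM2 to MCM7 ring were all lower in both lines and all at least 2-fold lower in HT29, although with the local background subtracted MCM5 was 1.97 in DLD1 and MCM3 fell short of 2-fold in HT29 (-0.91). MCM6 went from 11.28 to 10.35 in DLD1 and from 10.03 to 7.20 in HT29, changes of -0.93 and -2.83, which left 52.5% and 14.1%. Its deposited intensities went from 1882.4 to 822.6 and from 957.4 to 81.5. In HT29 the change of MCM6 was the most negative of all 15617 genes, and it ranked 37 under local background subtraction and 13 in the deposited values. MCM4 went from 10.71 to 9.81 in DLD1 and from 10.53 to 8.40 in HT29, changes of -0.90 and -2.13. MCM7 went from 10.70 to 9.43 and from 10.84 to 8.97, changes of -1.27 and -1.86. Its change in DLD1 was the most negative of the members as processed here, rank 38 from the lowest of all genes. In the deposited values that of POLA1 was more negative. With the local background subtracted MCM7 was at -1.15 in DLD1, rank 395 from the lowest of all genes. Several members were more negative there, with RFC2 (-1.94), MCM6 (-1.88) and MCM2 (-1.64) among them. As processed here, MCM4, MCM6 and MCM7 had the largest changes of the ring in DLD1. With the local background subtracted MCM2 and MCM3 (-1.21) were more negative than MCM7 and MCM4 (-0.84).

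MCM2 went from 10.97 to 10.59 in DLD1 and from 10.74 to 8.94 in HT29, changes of -0.38 and -1.80. MCM3 went from 8.79 to 8.34 and from 8.63 to 7.06, changes of -0.46 and -1.57. MCM5 went from 10.56 to 10.28 and from 9.49 to 8.09, changes of -0.28 and -1.40. For MCM2 and MCM3 the array of HT29 without glucose was thus well below the other 3 arrays, which lay closer together. For MCM5 it was also the lowest, but HT29 with glucose (9.49) was itself below DLD1 in either medium. As a set, the ring changed by a median of -0.68 in DLD1 and of -1.83 in HT29. In HT29 the 6 ring subunits (-2.83 to -1.40) did not overlap the 6 ORC subunits (-0.89 to 0.01), and the same held under all 9 settings. In DLD1 the ring subunits overlapped ORC under all 9.

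The factors that turn the ring into an active helicase were also lower in both lines, with MCM10 and CDC45 turning in DLD1 when the local background was subtracted. GINS2, a subunit of the GINS complex, went from 10.08 to 9.25 in DLD1 and from 9.40 to 7.18 in HT29, changes of -0.83 and -2.22. Its partners GINS1, GINS3 and GINS4 changed by -0.67, -0.31 and -0.36 in DLD1 and by -1.07, -0.77 and -1.21 in HT29. CDC45, the third part of the active helicase, went from 8.35 to 8.07 in DLD1 and from 9.53 to 8.04 in HT29, changes of -0.28 and -1.49. CDC45 was the helicase gene that was higher by over 2-fold in HT29 than in DLD1 with glucose, by 1.18, and without glucose it differed by -0.04 between the lines. MCM10, which helps to activate the helicase, changed by -0.74 and -1.001. MCM8, an MCM relative with a part in repair by recombination, changed by -0.47 and -0.82.

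Of the genes for firing and fork protection, DBF4 was the one that changed as much in DLD1 as in HT29. It went from 8.72 to 7.78 in DLD1 and from 9.22 to 8.35 in HT29, changes of -0.94 and -0.87. Its catalytic partner CDC7 went from 7.99 to 7.69 and from 7.69 to 6.38, changes of -0.30 and -1.31. The kinase thus moved more in HT29, while its activator moved by nearly the same amount in both lines as processed here. With the local background subtracted DBF4 was at 0.38 in HT29. CLSPN, which encodes claspin, a mediator of the checkpoint at stalled forks, changed by -0.26 and -1.09. Its 2 probes disagreed in size in HT29, at -1.65 and -0.52. TIPIN, of the fork protection complex, changed by -0.15 and -0.42, and WDHD1, which couples the helicase to polymerase alpha, by -0.14 and -0.49.

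The polymerase genes changed less evenly. In the alpha and primase complex, POLA1, the catalytic subunit, went from 6.97 to 6.16 in DLD1 and from 6.91 to 6.13 in HT29, changes of -0.81 and -0.78. Its levels without glucose were close to those of the blank spots, where this scale compresses a change, and in the deposited values the changes were -1.86 and -1.94. POLA2 changed by -0.53 and -1.26. PRIM1, the catalytic subunit of primase, went from 9.53 up to 10.04 in DLD1 and from 9.43 down to 8.47 in HT29, changes of 0.51 and -0.97. It was the member with the largest increase in DLD1, and the increase there was present under all 9 settings. In HT29 its change turned to 0.08 with the local background subtracted. PRIM2, the large primase subunit, changed by -0.42 and -0.49. As processed here, the subunits of this 1 complex therefore took 3 forms: nearly equal in both lines (POLA1, PRIM2), larger in HT29 (POLA2), and opposite (PRIM1).

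In polymerase delta, which extends the lagging strand, POLD1 changed by -0.21 and -0.88, POLD2 by -0.56 and -0.51, and POLD3 by -0.20 and -1.01. In polymerase epsilon, of the leading strand, the catalytic gene POLE changed by -0.17 and -0.27. Its levels, between 5.99 and 6.36, were also close to the blank spots, and the deposited values gave -0.64 and -0.88. POLE2, the second subunit, went from 7.97 to 7.17 in DLD1 and from 8.28 to 6.58 in HT29, changes of -0.81 and -1.71, the most negative of the polymerase genes in HT29 on this scale.

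PCNA, the sliding clamp, was among the lowest members. It went from 12.92 to 12.09 in DLD1 and from 12.27 to 9.95 in HT29, changes of -0.83 and -2.32. Its deposited intensities went from 5289.5 to 2854.5 and from 4579.7 to 872.3. The direction in DLD1 turned when the local background was subtracted, to 0.55, and was negative under the other settings. In RefSeq 4 pseudogenes are named after PCNA, and the sequence of its probe was not used here, so some of the signal could come from them. Of all members, 10 have pseudogenes named after them, DBF4, RPA2 and RPA3 among them.

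The clamp loader RFC has a large subunit, RFC1, and 4 small ones. The 4 small subunits were all at least 2-fold lower in HT29, but with the local background subtracted RFC3 alone was, with RFC2 at -0.81, RFC4 at -0.97 and RFC5 at -0.96. In that line they did not overlap the ORC subunits under any of the 9 settings. RFC3 went from 8.43 to 7.87 in DLD1 and from 9.44 to 7.84 in HT29, changes of -0.56 and -1.61. RFC5 changed by -0.63 and -1.29, and RFC2 by -0.19 and -1.08. RFC4 went from 9.85 to 9.97 in DLD1 and from 9.71 to 8.61 in HT29, changes of 0.12 and -1.10. RFC1, by contrast, was higher without glucose in both lines, save in DLD1 with the local background subtracted. It went from 8.26 to 8.53 in DLD1 and from 8.06 to 8.63 in HT29. The changes were 0.27 and 0.57, and both of its probes were higher in both lines, at 0.16 and 0.38 in DLD1 and 0.53 and 0.61 in HT29.

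FEN1, the nuclease that trims flaps between Okazaki fragments, went from 10.60 to 9.38 in DLD1 and from 10.79 to 9.29 in HT29, changes of -1.22 and -1.51. It was the member outside the helicase with a 2-fold decrease in DLD1 as processed here. LIG1, the ligase that seals the fragments, went from 8.06 to 7.54 and from 8.36 to 6.77, changes of -0.51 and -1.59. The RPA subunits, which bind single-stranded DNA in replication and repair alike, changed by less than 2-fold in both lines as processed here, and over the settings RPA2 reached -1.63 in DLD1 and -1.29 in HT29, and RPA3 -1.27 in HT29. RPA1 changed by -0.16 and -0.54, RPA2 by -0.58 and -0.96, and RPA3 by -0.05 and -0.78.

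**Figure D4:**
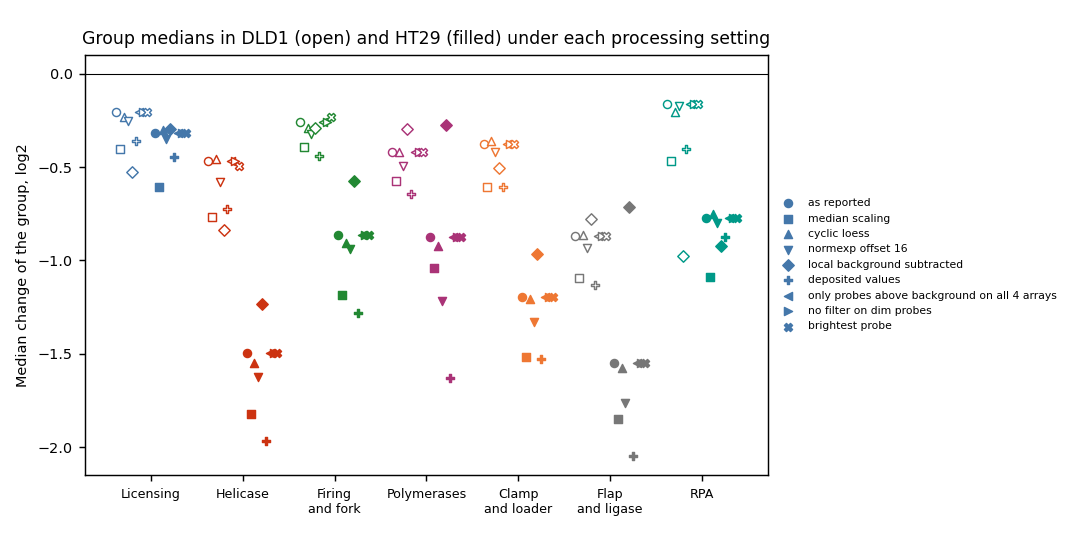
Median log2 change of each function group in DLD1 (open) and HT29 (filled) under the reported processing and 8 alternatives (marker shape). The helicase medians lie between -0.84 and -0.46 in DLD1 and between -1.97 and -1.23 in HT29, and the licensing medians between -0.53 and -0.21 and between -0.61 and -0.29.

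The promoter words were then set beside the changes. The 22 members with an E2F-type word changed by a median of -0.49 in DLD1 and of -1.29 in HT29, and the 19 with a window but no word -0.28 and -0.87. At 2-fold in HT29, 14 of the 22 and 6 of the 19 were lower, against 3.29% of all genes. The ranges overlapped widely, from -2.83 to 1.17 with a word and from -1.51 to 0.57 without. The words also fell unevenly over the groups, in 8 of 10 helicase genes with a window, 4 of 9 licensing genes, 4 of 8 polymerase genes and 2 of 6 clamp and loader genes. Within licensing, the 4 genes with a word were GMNN, ORC3, CDT1 and CDC6, which spanned the largest decrease and the largest increase of that group. The words and the function groups cannot be told apart in these counts.

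**Figure D5:**
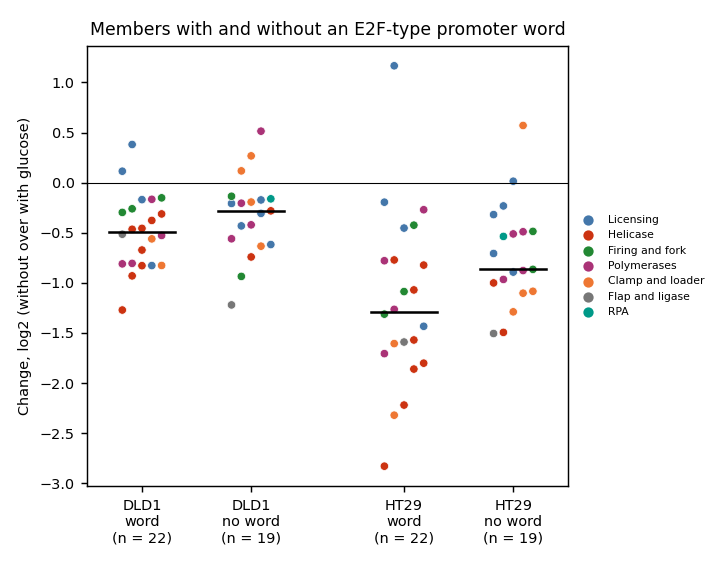
Log2 change of the 41 members with a promoter window, with or without an E2F-type word, in DLD1 and HT29. Points are genes coloured by function, and bars are medians, at -0.49 with a word and -0.28 without in DLD1, and at -1.29 and -0.87 in HT29.

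The lines themselves were compared in each medium. With glucose the median difference between HT29 and DLD1 was -0.20 (HT29 minus DLD1, log2), and it was -0.0026 with median scaling and 0.0 in the deposited values, so the counts of lower members rest on the scaling. In HT29 32 were lower (background 50.4%), 3 were at least 2-fold lower (background 2.71%) and 2 were at least 2-fold higher (background 3.05%). The 3 lower genes were MCM6 at -1.25, GINS4 at -1.20 and MCM5 at -1.06, and the higher ones were CDC45 at 1.18 and RFC3 at 1.02. Without glucose the median was -0.70, or -0.38 with the local background subtracted, and 43 members were lower in HT29 (background 48.6%), 14 were at least 2-fold lower in HT29 (background 4.80%) and 0 at least 2-fold higher (background 4.74%). Of the 14, 8 were helicase genes, with MCM6 at -3.15. With limma and medium as a block, 14 members had an unadjusted p below 0.05 for the line, where 21.3% of all genes did, and 0 members or other genes passed an adjusted p of 0.05 (smallest limma adjusted p = 0.136).

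Other replication genes changed less than the members. Of 30 listed, covering chromatin assembly, other fork factors and accessory polymerase subunits, 29 were measured, with a median change of -0.20 in DLD1 and of -0.54 in HT29. In both lines 22 were lower (background 32.7%) and 3 higher (background 30.9%), and 4 were at least 2-fold lower in HT29 (background 3.29%). The lowest by mean change were ASF1B, a histone chaperone (-1.06 and -1.73), CHAF1A of the chromatin assembly factor (-0.81 and -0.85), DSCC1 of an alternative clamp loader (-0.17 and -1.43) and SSRP1 of the histone chaperone FACT (-0.65 and -0.74). The highest was POLD4, the smallest subunit of polymerase delta. It went from 7.96 to 9.26 in DLD1 and from 8.95 to 10.81 in HT29, changes of 1.30 and 1.87, opposite to POLD1, POLD2 and POLD3. RNASEH2C (0.47 and 0.20), TOP1 (-0.51 and 0.90) and TONSL (0.04 and 0.26) followed.

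Genes that control entry into S phase were mixed. All 23 listed were measured, with medians of -0.22 and -0.37, and 15 were lower (background 32.7%) and 3 higher (background 30.9%) in both lines. TFDP1, the partner through which E2F proteins bind DNA, went from 10.53 to 9.79 in DLD1 and from 11.46 to 9.36 in HT29, changes of -0.73 and -2.09. CDK2, the S-phase kinase, changed by -0.79 and -1.38, FBXO5, an inhibitor of the anaphase-promoting complex, by -0.69 and -1.47, and RBL1, an RB relative, by -0.48 and -0.75. E2F1 itself went from 6.38 to 6.42 in DLD1 and from 6.65 to 6.27 in HT29, changes of 0.04 and -0.38. These levels were dim, where this scale compresses a change, and the deposited values gave 0.11 and -0.98. RBL1 was also dim, and its deposited values gave -1.31 in DLD1 and -2.55 in HT29. The E-type cyclins CCNE1 and CCNE2 changed by -0.68 and -0.20 in DLD1 and by -0.20 and -0.52 in HT29.

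CDKN1A, which encodes an inhibitor of cyclin-dependent kinases that also binds PCNA, was the highest of the S-phase control list. Its level went from 6.65 to 7.14 in DLD1 and from 6.19 to 10.37 in HT29, changes of 0.49 and 4.18. In the deposited intensities it went from 39.2 to 69.9 and from 17.6 to 1216.7. The array of HT29 without glucose therefore had both the highest CDKN1A and the lowest MCM6 and PCNA of the 4 arrays, and whether these are linked was not tested. E2F5 (0.58 and 0.35), TFDP2 (0.65 and -0.04) and E2F6 (0.00 and 0.37) followed.

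The arrays were alike in quality, with 85.5% to 87.1% of probes above the blank spots. The epithelial genes EPCAM, KRT18 and KRT19 were far above background on all 4 arrays. Of the other epithelial markers listed, CDH1 had deposited intensities of 155.4 to 263.6, and KRT8 had no probe. CDX1 was near background on all 4 arrays (10.2 to 20.3). KRT20 was at 43.5 and 47.1 in DLD1 and 474.5 and 711.2 in HT29, and VIL1 at 62.1 and 68.0 and at 209.1 and 108.7. The intestinal factor CDX2 was near background in HT29 (deposited intensities 4.0 and 6.2) and LGALS4 in DLD1 (7.8 and 15.2), so the lines differed in those markers. Of the markers of immune, stromal and endothelial cells, PTPRC, COL1A1, COL3A1 and LUM had no probe above background on any array, and CDH5 had one on some arrays. CD14, VWF, CD3E and DCN had a probe above background on all 4. The deposited intensities were 18.9 to 38.4 for CD14 and 4.5 to 5.6 for VWF, and the normalized levels 5.74 to 5.81 for CD3E and 7.29 to 7.37 for DCN. Their part in the results was not tested.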

How the data were processed

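RNA from 4 cultures was measured on single-colour Cy5 oligonucleotide arrays of 27456 spots, 2680 of them blank and 24460 of them probes. Per the file headers, the deposited scanner files hold median intensity at 635 nm, for the spot and for its surroundings, merged over 3 scanner gains and not background-corrected. The deposited value table also holds intensity on a linear scale, with a median of 25 on each array. Set against the scanner values it is a straight line of the spot median (r above 0.999), and how the authors made it is not stated in any source used. The growth protocol reads as if glucose or glutamine was added, and the groups were taken from the sample titles.

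In limma 3.58.1 (R 4.3.3), normexp with an offset of 50 was applied to the medians of all spots, followed by quantile normalization. The surroundings were left out of the correction, since their log intensity tracked that of the spot (r between 0.904 and 0.966). The offset makes changes of dim genes smaller. Control spots and 1 flagged probe were left out. Probes brighter than 95 percent of the unflagged blanks counted as above background, and probes of a gene that did so on 1 array or more were averaged. Of the probes, 20235 had 1 symbol, 0 had several and the rest have no name here. Through RefSeq 2491 older symbols were replaced, which left 17605 genes, of which 15617 were above background in both lines, on 1 array or more of each, and were tested. No probe sequences were used.

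Within a line, genes were counted at 2-fold without a test. Effects of the medium (line as a block) and of the line (medium as a block) were tested with limma over all genes with Benjamini-Hochberg adjustment at 0.05 and 1 residual degree of freedom. The lines pair the arrays. The procedure was tested on simulated data. The alternatives were median scaling, cyclic loess, an offset of 16, local background subtraction, the deposited values, the probe filter, the brightest probe, a 1.5-fold minimum and fits without the block. The genes named are all 47 members and, of the lists of other replication and S-phase control genes, the 4 lowest and 4 highest by mean change, with CDKN1A, E2F1, CCNE1 and CCNE2. The members and lists were chosen with earlier results of these data known. The number of arrays limits the precision. Figures were drawn with matplotlib.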

Additional observations from a re-analysis of the deposited data

Results flagged for a closer look

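Opposite signs in DLD1 and HT29 were found for 4 of the 47 members and for 5669 of all 15617 genes, a larger share. Changes are given as log2 without over with glucose. For none of the 4 was the difference between the lines tested. PRIM1 was 0.51 in DLD1 and -0.97 in HT29, a difference of -1.48 (HT29 minus DLD1). RFC4 was 0.12 and -1.10, a difference of -1.22. CDT1 was 0.38 and -0.19, a difference of -0.58. ORC2 was -0.17 and 0.01, a difference of 0.19. The increase in DLD1 was seen under 9 of 9 processing settings for PRIM1 and CDT1 and under 7 of 9 for RFC4. In HT29 PRIM1 was above 0 under 1 of 9, at 0.08 with the local background subtracted, so its signs were not opposite there. CDT1 and RFC4 were above 0 in HT29 under 0 of 9. The value of ORC2 in HT29 was above 0 under 6 of 9, and its size is close to no change in either line.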

How the results depend on the processing

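Of the 9 processing settings, counting the reported one, the choice of probes and cyclic loess moved the results least. The members lower in both lines numbered 41 as reported, 43 with median scaling, 43 in the deposited values and 31 with the local background subtracted. Of all genes, 32.7%, 34.9%, 33.2% and 29.6% were lower in both lines under these settings. The members more negative in HT29 numbered 41, 42, 41 and 31. The members at least 2-fold lower in DLD1 numbered 2 as reported, where 0.807% of all genes were. They numbered 7 with median scaling (background 2.06%) and 4 with an offset of 16 (background 1.44%). With local background subtraction they numbered 12 (background 3.56%), and in the deposited values 11 (background 4.43%). At a 1.5-fold minimum they numbered 14, where 715 of all 15617 genes were lower. Those 2-fold lower in HT29 (24, background 3.29%) numbered 14 with local background subtraction (background 2.68%). With local background subtraction the medians were -0.53 for licensing and -0.98 for RPA in DLD1, and -0.27 for the polymerase genes and -0.72 for FEN1 and LIG1 in HT29. In the deposited values the HT29 medians were -1.63 for all members, -0.45 for licensing, -1.63 for the polymerase genes and -2.05 for FEN1 and LIG1, and the licensing median in DLD1 was -0.36. Median scaling gave -0.41 and -0.61 for licensing in DLD1 and HT29, and an offset of 16 gave -1.22 for the polymerase genes in HT29. MCM5 in HT29 against DLD1 changed sign with local background subtraction, to 0.0385 from -1.63. With that setting 12 members were higher in DLD1 rather than 5, MCM5 at 1.97, ORC3 at 1.12 and RPA1 at 1.05 among them. Genes with an adjusted limma p below 0.05 between the lines (0) numbered 759 in the deposited values and 25 without the medium block, with 0 members in either. For the medium, the fit with no replicate block (no line block) also gave 0 genes. With median scaling, 2.06% of all genes were 2-fold lower and 0.615% higher in DLD1, and 5.73% and 2.84% in HT29. The cause of these shifts was not tested. Leaving out an array was not possible, since each group has 1.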

Other observations

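Of the members, 14 share a promoter region with a neighbour transcribed the other way that was also measured, and these neighbours were named after their values were seen. In HT29 the median change was -0.76 for the members and -0.04 for the neighbours, and in DLD1 -0.40 and -0.03. All 14 of these members and 5 of the neighbours were lower in both lines, where 32.7% of all genes were, and 4 members and 1 neighbour were at least 2-fold lower in HT29, where 3.29% were. The share of the neighbours is near that of all genes. CDS2 beside PCNA changed by 0.03 in DLD1 and 0.27 in HT29, TPRA1 beside MCM2 by 0.35 and 0.21, AP4M1 beside MCM7 by 0.05 and -0.30, and TMEM258 beside FEN1 by 0.22 and 0.29. The neighbour that was 2-fold lower, PXMP2 beside POLE, changed by -0.49 and -1.65, where POLE itself changed by -0.17 and -0.27.

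Among the other replication genes, a pair chosen after their values were seen had the same opposite signs as PRIM1 and RFC4. TIMELESS, the partner of TIPIN in the fork protection complex, went from 9.002 to 9.499 in DLD1 and from 8.96 to 7.92 in HT29 without glucose, changes of 0.50 and -1.03. PCLAF, a protein that binds PCNA, went from 11.39 to 11.76 in DLD1 and from 12.11 to 10.56 in HT29, changes of 0.36 and -1.55. In the deposited values the changes were 0.31 and -1.29 for TIMELESS, and 0.09 and -1.58 for PCLAF. The difference between the lines was not tested for either.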
